A study of Mus musculus with 28 samples.

Results

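The genes described here are the 10 members of the interleukin-1 (IL-1) and Toll-like receptor family that were taken by name: the ligands Il1a, Il1b, Il18 and Il33, the antagonist Il1rn, the receptor genes Il1r1, Il1rl1, Tlr2 and Tlr4, and the adaptor gene Myd88. All 10 were found among the 25251 genes of the expression table. The libraries come from a study of how Flt3-ITD, an internal tandem duplication in the receptor tyrosine kinase Flt3 found in acute myeloid leukemia, affects hematopoietic stem cells and the bone marrow niche. RNA sequencing covered bone marrow mononuclear cells (MNCs) and 2 niche populations sorted from bone lining cells, endothelial cells (ECs; CD45-Ter119-CD31+) and mesenchymal stem cells (MSCs; CD45-Ter119-CD31-CD166-Sca1+). Each population was taken from wild-type mice (Flt3+/+) and from mice homozygous for the knock-in allele (Flt3ITD/ITD), all on a C57BL/6 background and 8 to 10 weeks old. EC and MSC groups held 5 libraries per genotype, each from 100 cells, and MNC groups held 4 per genotype, each from 200 cells. Each library came from cells of 1 mouse. The sources used here do not say whether the MNC, EC and MSC libraries came from the same mice, and the fits across populations treat all libraries as independent. The knock-in is a germline allele, so in Flt3ITD/ITD mice the niche cells carry it as well as the blood cells.

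IL-1α and IL-1β, encoded by Il1a and Il1b, signal through the receptor encoded by Il1r1, and the secreted antagonist encoded by Il1rn occupies that receptor without signaling. IL-18 and IL-33 are relatives with receptors of their own, IL-33 using the product of Il1rl1, known as ST2, and all of these receptors share with the Toll-like receptors, sensors of microbial products, a cytoplasmic domain that recruits MyD88. MyD88 passes the signal to IRAK kinases and TRAF6 and so to NF-κB. In marrow, IL-1β and the IL-1 antagonist are mainly products of myeloid cells, whereas IL-33 is stored in the nucleus of stromal cells in many tissues.

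The deposited table gave a read count and an RPKM value (read number scaled to transcript length and library size) for each gene and library. Total counts ran from 6377013 to 33880743 per library. Endothelial markers summed to 2402 to 3511 RPKM in ECs and to at most 35.3 RPKM elsewhere, and 10 mesenchymal markers summed to at least 29193 RPKM in MSCs, 3682 to 6374 RPKM in ECs and at most 196 RPKM in MNCs. The 12 neutrophil and monocyte markers summed to 30455 RPKM in Flt3ITD/ITD EC replicate 2 and to 6477 RPKM in Flt3ITD/ITD MSC replicate 5, against at most 2141 RPKM in the other EC libraries and 729 RPKM in the other MSC libraries. For the results in which these 2 libraries weigh most, values without them are given beside the result. In Flt3ITD/ITD MNC replicates 3 and 4 the same markers summed to 60102 and 75421 RPKM, below the other 6 MNC libraries at 168211 to 207052 RPKM. From 100 sorted cells a gene was often present in one library and absent from the next: the share of all genes that reached 100 counts in some library yet had 3 or fewer in a library of the same kind was 9.22% to 12.7% in the EC and MSC groups and 0.689% to 0.844% in the MNC groups. Tlr2 and Tlr4 behaved in this way in ECs of both genotypes, Il33 in Flt3ITD/ITD ECs and Il1b in MSCs of both genotypes, so a low value of these genes in single EC or MSC libraries is weak evidence of absence. In such bulk libraries, fewer cells of a type and less RNA per cell cannot be told apart.

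The promoters of 4 ligand genes, Il1b, Il1rn, Il18 and Il33, are shown because the levels of these genes separated the populations. Each run is the 250 bases before a RefSeq transcript start on build GRCm38.p6, written 5′ to 3′ on the strand of the gene. Capitals mark matches, on either strand, to the letters of 6 motifs. NF-κB was searched as GGG followed after any 5 bases by CC, and the interferon response element as GAAA followed after any 2 bases by the same letters. The other searches were TTGCNNAA for C/EBP factors, TGANTCA for AP-1 factors, GAGGAAG for the myeloid factor PU.1 and TATAAA for the TATA box.
Il1b, chr2:129371140-129371389, minus strand: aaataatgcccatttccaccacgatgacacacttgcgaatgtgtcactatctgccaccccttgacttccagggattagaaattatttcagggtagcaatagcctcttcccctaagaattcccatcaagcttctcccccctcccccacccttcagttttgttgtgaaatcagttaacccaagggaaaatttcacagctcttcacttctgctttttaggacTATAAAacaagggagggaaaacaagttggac
Il1rn, chr2:24336610-24336859, plus strand: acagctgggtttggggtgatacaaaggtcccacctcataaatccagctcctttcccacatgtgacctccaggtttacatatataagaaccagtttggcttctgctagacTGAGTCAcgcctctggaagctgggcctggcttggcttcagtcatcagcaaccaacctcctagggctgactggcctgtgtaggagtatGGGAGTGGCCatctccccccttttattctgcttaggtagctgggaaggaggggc
Il18, chr9:50554450-50554699, plus strand: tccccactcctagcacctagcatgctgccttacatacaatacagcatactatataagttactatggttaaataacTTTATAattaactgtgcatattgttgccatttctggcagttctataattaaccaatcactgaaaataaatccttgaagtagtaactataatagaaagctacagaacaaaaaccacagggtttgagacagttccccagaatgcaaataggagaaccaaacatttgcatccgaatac
Il33, upstream start, chr19:29924863-29925112, plus strand: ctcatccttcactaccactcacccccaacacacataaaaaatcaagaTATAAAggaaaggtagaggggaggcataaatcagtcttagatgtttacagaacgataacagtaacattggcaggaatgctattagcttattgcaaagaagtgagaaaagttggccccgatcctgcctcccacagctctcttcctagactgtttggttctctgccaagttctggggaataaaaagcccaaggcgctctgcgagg
Il33, downstream start, chr19:29945540-29945789, plus strand: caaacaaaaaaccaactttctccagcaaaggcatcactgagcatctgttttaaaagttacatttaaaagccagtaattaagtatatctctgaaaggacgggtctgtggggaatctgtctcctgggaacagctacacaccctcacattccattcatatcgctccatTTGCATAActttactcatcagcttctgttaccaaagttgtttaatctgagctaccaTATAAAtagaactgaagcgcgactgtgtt
The Il1b window held the TATA letters 31 bases before the transcript start and no match to the other 5 motifs. At the downstream start of Il33 the TATA letters began 29 bases before the start, with a C/EBP match at 85 bases, whereas at the upstream start the TATA letters lay 203 bases away. The printed Il1rn window held an AP-1 match at 141 bases and an NF-κB match at 54 bases and no TATA letters. It is the most upstream of 3 RefSeq starts of Il1rn, and of the others, which are not printed, the window that begins at base 24345041 held no match and the one that begins at base 24345121 held an NF-κB match at 51 bases and no AP-1 match. The Il18 window held the TATA letters only in reverse, 175 bases before the start. Among 32851 RefSeq mouse promoters of the same length, 45.8% held the NF-κB letters, 6.75% AP-1, 9.56% C/EBP, 10.6% PU.1, 12.4% TATA and 2.98% the interferon response letters. A match describes letters in these windows and says nothing of binding. RefSeq windows were matched for 9 of the 10 genes, with none for Tlr4.

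Across the genome the 10 genes lie on 6 chromosomes (GRCm38.p6). Il1r1 (chr1:40222480-40316201) and Il1rl1 (chr1:40404864-40465418) are both on chromosome 1. Il1rn (chr2:24336860-24351491), Il1a (chr2:129299609-129310186) and Il1b (chr2:129364569-129371164) are on chromosome 2, and Il18 (chr9:50554700-50581841) and Myd88 (chr9:119335934-119340018) on chromosome 9. Tlr2 (chr3:83836272-83841824), Tlr4 (chr4:66827551-66846581) and Il33 (chr19:29925113-29960718) are alone on theirs.

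The first question was which cells of the marrow carry the ligands and which carry the receptors. Il1b and Il1rn RNA was high in MNCs and near 0 in ECs, Il33 was high in MSCs, Il18 was present in MSCs and MNCs but not ECs, and Il1r1 was high in both niche populations and close to 0 in MNCs. Differences between populations were tested with edgeR's quasi-likelihood test in 1 fit of all 28 libraries, averaged over genotypes, and a call needed both an adjusted p below 0.1 and mean RPKM values at least 2-fold apart. Of the 9 genes that passed the filter on low counts, 4 were called between ECs and MSCs, all 4 higher in MSCs, where 16.6% of 16897 genes tested were called higher in MSCs and 16.3% higher in ECs. Between ECs and MNCs 5 were called higher in MNCs and 1 higher in ECs (22% and 23.1% of all genes). Between MSCs and MNCs 3 were called higher in MNCs and 2 higher in MSCs (22% and 22.2% of all genes). The median log2 fold change of the 9 genes was -1.31, -1.28 and -0.41 in the 3 comparisons, beside -0.01, 0 and -0.02 for all genes tested. The 3 comparisons share libraries and are not independent of one another.

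**Figure D1:**
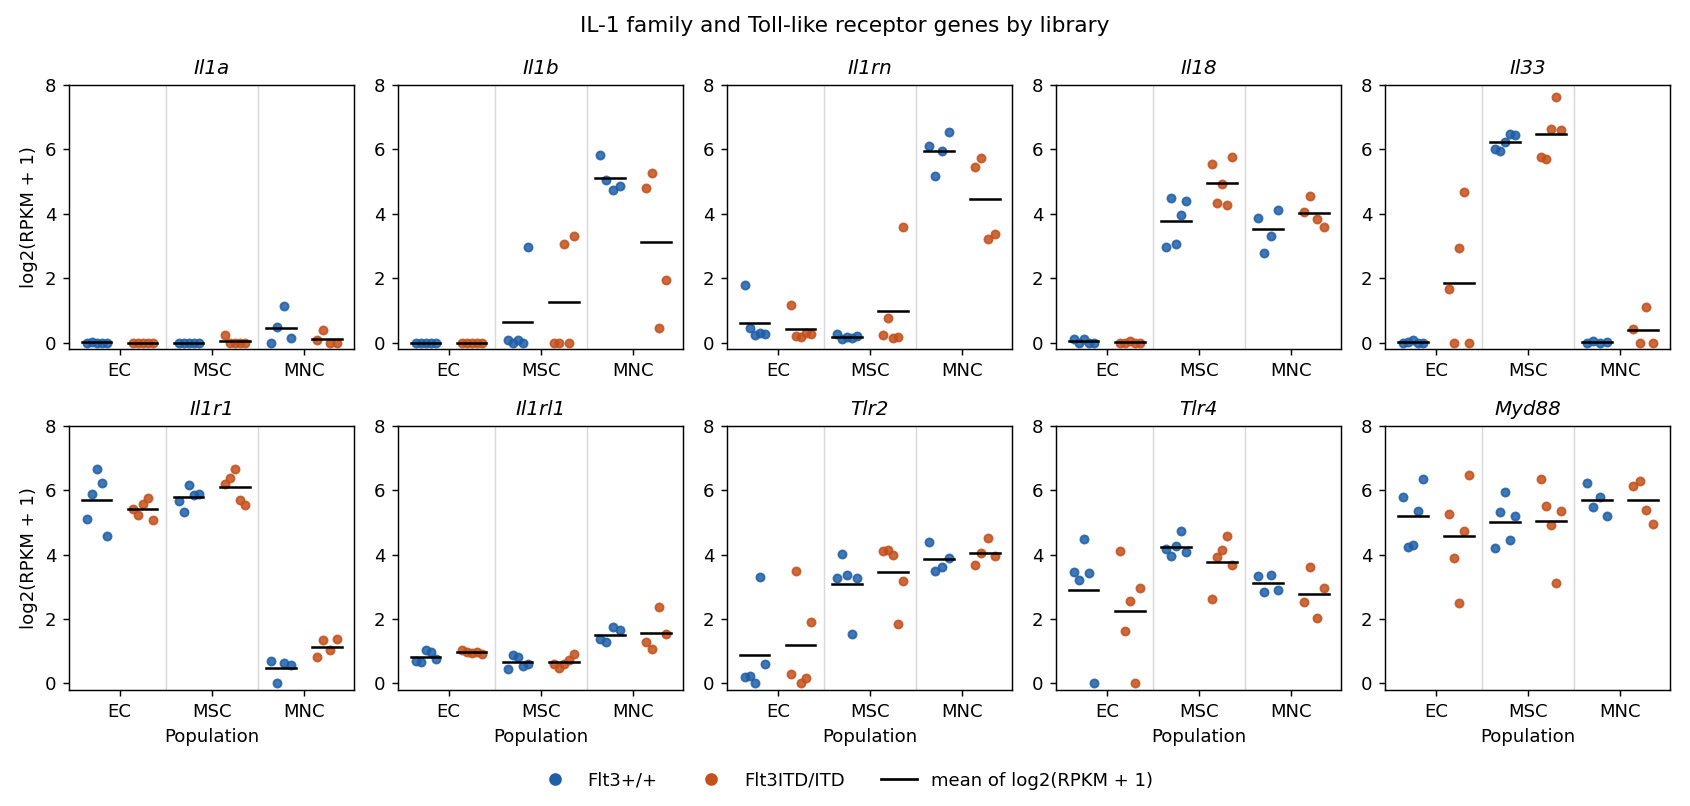
Level of each of the 10 genes in each of the 28 libraries, as log2(RPKM + 1), by population (x axis) and genotype (color); each point is 1 library and each line the group mean of the plotted values. Il1b and Il1rn are highest in MNCs, Il33 in MSCs, and Il1r1 is high in ECs and MSCs, with Tlr2, Tlr4 and Il33 at or near 0 in some EC libraries and well above it in others.

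Il1b, the gene of the main circulating IL-1 agonist, had no count in any of the 10 EC libraries, which allows up to 3 counts in each. In Flt3+/+ MNCs it stood at 55.4, 31.9, 25.8 and 28.4 RPKM, and in Flt3ITD/ITD MNCs at 26.7, 37.4, 0.38 and 2.85 RPKM. In Flt3+/+ MSCs the 5 values were 0.06, 0, 0.06, 0 and 6.80 RPKM, and in Flt3ITD/ITD MSCs 0, 0, 7.36, 0 and 8.94 RPKM. MSC libraries thus fell into 3 with clear Il1b and 7 with at most 3 counts. The 10 pan-leukocyte markers summed to 143, 42.7 and 346 RPKM in those 3 MSC libraries and to 0.92 to 54.4 RPKM in the other 7, and the part of blood cells in the MSC values was not tested. MNCs averaged 26.1 ± 17.8 RPKM (SD, n = 8). With the EC libraries set at the limit of 3 counts each, mean Il1b was at least 186-fold higher in MNCs (adjusted p = 0.000266) and at least 16.2-fold higher in MSCs (adjusted p = 0.00315). Between MSCs and MNCs the log2 fold change was -3.51 ± 1.47 (SE) with an adjusted p of 0.0615. That call was lost without Flt3ITD/ITD MNC replicate 2 (adjusted p = 0.117) and when only Flt3+/+ libraries entered the contrast (adjusted p = 0.117). Without both libraries that carried neutrophil and monocyte markers, Il1b was still called for ECs against MSCs (-8.60 ± 2.30, adjusted p = 0.00895, a fitted value against ECs at 0) and for MSCs against MNCs (-3.90 ± 1.61, adjusted p = 0.0608), and its mean in the 9 remaining MSC libraries was 1.59 RPKM.

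Il1a, the gene of the cell-associated IL-1 agonist, was the least abundant of the 10. It had 1 count in all ECs together and 11 counts in MSCs, all from 1 library. In MNCs it stood at 0, 0.40, 1.20 and 0.11 RPKM in Flt3+/+ mice and at 0.05, 0.30, 0 and 0 RPKM in Flt3ITD/ITD mice. Its counts were too low for the filter, so it is outside the 9 genes tested between populations. Fitted without the filter it was called higher in MNCs than in ECs (adjusted p = 0.00582) and than in MSCs (adjusted p = 0.0169), with a ratio of MNCs to ECs from summed counts, scaled to depth, of 104 (95% exact interval 18.6 to 4100, counting error only).

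Il1rn, which encodes the receptor antagonist, had the highest mean RPKM of the ligand and antagonist genes among the 10 in MNCs. Flt3+/+ MNCs held 67.4, 35.4, 60.6 and 92.4 RPKM and Flt3ITD/ITD MNCs 43.2, 52.3, 8.25 and 9.45 RPKM. In every MNC library the antagonist exceeded the agonist, with Il1rn over Il1b RPKM ratios of 1.22, 1.11, 2.35 and 3.25 in Flt3+/+ mice and 1.62, 1.4, 21.7 and 3.32 in Flt3ITD/ITD mice. ECs held 2.45, 0.37, 0.17, 0.24 and 0.20 RPKM in Flt3+/+ mice and 1.27, 0.16, 0.12, 0.24 and 0.20 RPKM in Flt3ITD/ITD mice. MSCs held 0.08 to 0.20 RPKM in Flt3+/+ mice, and 0.18, 0.71, 0.11, 0.14 and 11.2 RPKM in Flt3ITD/ITD mice, the last in replicate 5, which also carried neutrophil and monocyte markers. Il1rn was lower in ECs than in MNCs by a log2 fold change of -6.58 ± 0.91 (adjusted p = 1.77e-06) and lower in MSCs than in MNCs by -6.21 ± 0.89 (adjusted p = 2.99e-06). ECs and MSCs did not differ past the threshold (-0.37 ± 0.75, adjusted p = 0.768), and that value turned to 1.10 without Flt3ITD/ITD MSC replicate 5 (adjusted p = 0.163).

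Il18, whose precursor is cleaved by caspase-1 in inflammasomes, was present in MSCs and MNCs and near 0 in ECs. MSCs held 6.85, 21.5, 7.43, 14.7 and 19.9 RPKM in Flt3+/+ mice and 45.7, 19.3, 29.3, 18.2 and 53.0 RPKM in Flt3ITD/ITD mice. MNCs held 13.5, 5.86, 9.0 and 16.5 RPKM, and 15.7, 22.2, 13.2 and 11.2 RPKM. The 10 EC libraries together had 3 counts. From the summed counts, scaled to depth, MSCs exceeded ECs 1342-fold (95% exact interval 459 to 6506, counting error only) and MNCs exceeded ECs 766-fold (262 to 3717). The fitted log2 fold changes were -9.94 ± 0.67 for ECs against MSCs (adjusted p = 1.64e-11) and -9.17 ± 0.66 for ECs against MNCs (adjusted p = 3.46e-11). MSCs, at 23.6 ± 15.2 RPKM (n = 10), and MNCs, at 13.4 ± 4.99 RPKM (n = 8), overlapped, with a log2 fold change of 0.77 ± 0.47 (adjusted p = 0.192).

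Il33, the gene of a nuclear alarmin released from damaged cells, was the stromal ligand of the set. MSCs held 63.5, 61.3, 73.6, 87.5 and 86.7 RPKM in Flt3+/+ mice and 53.8, 51.5, 97.3, 198 and 97.1 RPKM in Flt3ITD/ITD mice, so that every MSC library exceeded every library of the other populations. Flt3+/+ ECs and MNCs were at most 0.05 RPKM. Flt3ITD/ITD ECs held 2.14, 0, 6.69, 24.5 and 0 RPKM. MSCs averaged 441-fold more Il33 RPKM than MNCs (log2 fold change 10.14 ± 1.4, adjusted p = 1.63e-06) and 26.0-fold more than ECs, where the fit, which averages the genotypes on the log scale, gave -8.33 ± 1.19 for ECs against MSCs (adjusted p = 5.27e-06). ECs and MNCs did not differ past the threshold (1.81 ± 1.62, adjusted p = 0.38).

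Il1r1, the signaling receptor for IL-1α and IL-1β, was arranged the other way around from Il1b. ECs held 33.8, 57.7, 101, 74.1 and 22.9 RPKM in Flt3+/+ mice and 42.1, 36.4, 46.3, 53.6 and 33.0 RPKM in Flt3ITD/ITD mice. MSCs held 50.3, 38.9, 70.2, 56.7 and 58.1 RPKM, and 72.6, 82.6, 99.5, 51.3 and 45.3 RPKM. MNCs held 0.61, 0.01, 0.56 and 0.48 RPKM, and 0.75, 1.57, 1.04 and 1.58 RPKM, so no MNC library reached any niche library. Mean Il1r1 RPKM was 60.7-fold higher in ECs than in MNCs (log2 fold change 5.96 ± 0.47, adjusted p = 1.77e-10) and 75.8-fold higher in MSCs than in MNCs (6.52 ± 0.49, adjusted p = 4.77e-11). ECs, at 50.1 ± 23.1 RPKM, and MSCs, at 62.6 ± 18.6 RPKM (both n = 10), overlapped, and their difference missed the threshold (-0.56 ± 0.34, adjusted p = 0.225).

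Il1rl1, which encodes the IL-33 receptor ST2, was low in all populations. It averaged 0.869 ± 0.169 RPKM in ECs, 0.593 ± 0.183 RPKM in MSCs and 2.02 ± 0.970 RPKM in MNCs. The 8 MNC libraries, at 1.10 to 4.19 RPKM, lay above all 20 niche libraries, at 0.37 to 1.04 RPKM. Il1rl1 was higher in MNCs than in ECs (log2 fold change -1.28 ± 0.30, adjusted p = 0.00104) and than in MSCs (-1.68 ± 0.30, adjusted p = 5.38e-05), while ECs and MSCs differed by 0.40 ± 0.28 (adjusted p = 0.304). Mast cells, basophils and eosinophils are known carriers of ST2, and 8 of their markers summed to at most 144 RPKM in the niche libraries. In Flt3+/+ MNCs the sums were 7.07, 972, 2628 and 146 RPKM, beside Il1rl1 at 1.59, 1.43, 2.36 and 2.16 RPKM. In Flt3ITD/ITD MNCs they were 13.3, 964, 18.2 and 735 RPKM, beside Il1rl1 at 1.43, 1.10, 4.19 and 1.90 RPKM. The part of these cells in the MNC level was not tested.

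**Figure D2:**
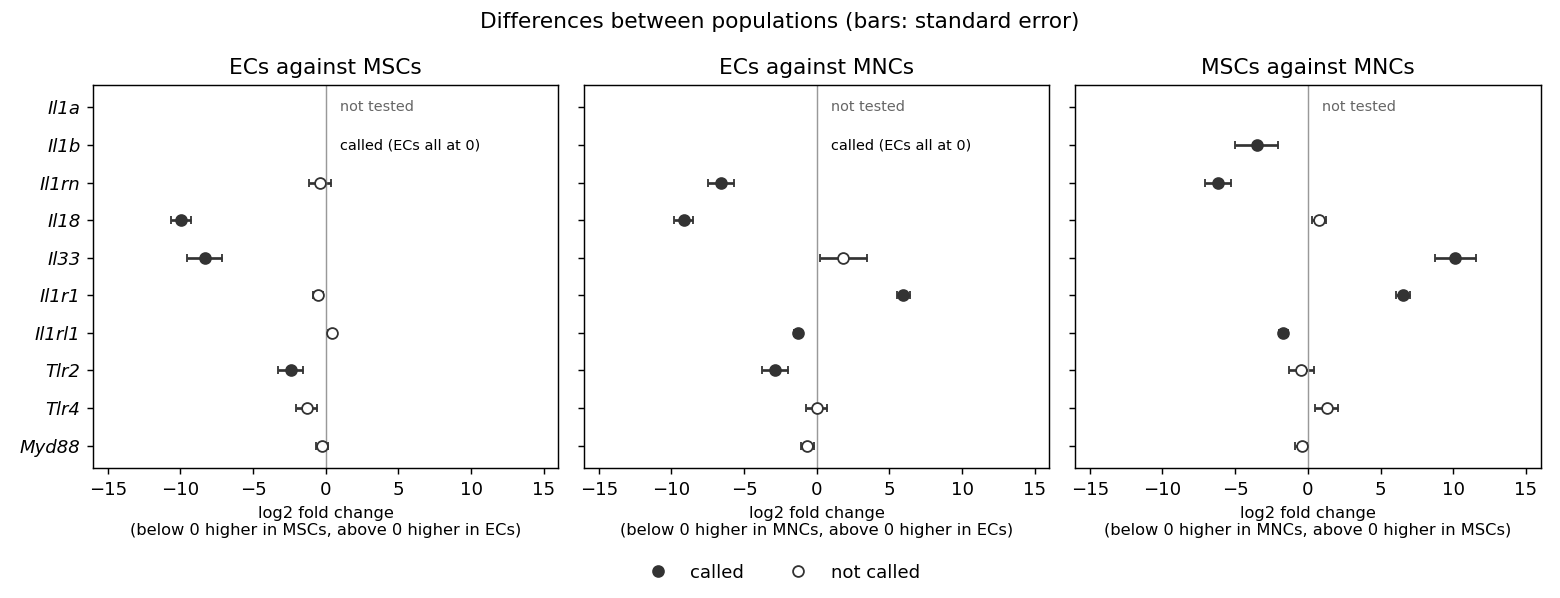
Fitted log2 fold change of each gene in each pairwise comparison of ECs, MSCs and MNCs (quasi-likelihood fit of all 28 libraries), with the standard error as bars; filled points were called. Il18 and Il33 lie far to the MSC side of ECs, Il1r1 lies 5.96 and 6.52 to the niche side of MNCs, and Myd88 and Tlr4 have no filled point.

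Tlr2, the receptor for bacterial lipopeptides, was present in MNCs and MSCs and scattered in ECs. MNCs held 10.3 to 22.01 RPKM and MSCs 1.92 to 16.7 RPKM. ECs held 0.15, 0.17, 0.02, 8.84 and 0.52 RPKM in Flt3+/+ mice and 0.23, 10.4, 0.01, 0.13 and 2.78 RPKM in Flt3ITD/ITD mice. The highest of these, 10.4 RPKM, was in replicate 2, the EC library with neutrophil and monocyte markers. Tlr2 was lower in ECs than in MSCs (log2 fold change -2.42 ± 0.85, adjusted p = 0.0308) and than in MNCs (-2.87 ± 0.89, adjusted p = 0.0105). Without the 2 libraries that carried those markers the difference was -3.39 from MSCs (adjusted p = 0.00496) and -3.78 ± 0.91 from MNCs (adjusted p = 0.0016). The difference from MSCs missed the threshold with only Flt3+/+ libraries in the contrast (-2.50, adjusted p = 0.153). MSCs and MNCs did not differ past the threshold (-0.45 ± 0.85, adjusted p = 0.707).

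Tlr4, the receptor for lipopolysaccharide, was present in every MSC and MNC library and scattered in ECs. MSCs held 17.2, 14.7, 18.1, 25.7 and 15.9 RPKM in Flt3+/+ mice and 5.11, 14.3, 16.6, 23.0 and 11.7 RPKM in Flt3ITD/ITD mice, and MNCs held 3.10 to 11.3 RPKM. ECs held 10.01, 8.27, 21.4, 9.69 and 0 RPKM, and 16.5, 2.11, 4.93, 0 and 6.84 RPKM, with no count at all in 1 library of each genotype. No comparison of populations was called for Tlr4, with log2 fold changes of -1.31 ± 0.72 for ECs against MSCs, -0.02 ± 0.75 for ECs against MNCs and 1.29 ± 0.77 for MSCs against MNCs (adjusted p = 0.17, 0.995 and 0.183). Leaving out Flt3ITD/ITD EC replicate 1 brought the first of these to a call (-1.68, adjusted p = 0.0845), and leaving out Flt3+/+ EC replicate 5, which had no Tlr4 count, the third (1.32, adjusted p = 0.0665).

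Myd88, the adaptor that joins the IL-1 and Toll-like receptors, was found in every library. It ranged from 4.64 to 87.4 RPKM in ECs, 7.64 to 80.4 RPKM in MSCs and 30.2 to 76.9 RPKM in MNCs, and the populations overlapped. Its log2 fold changes between populations were -0.23 ± 0.42, -0.64 ± 0.44 and -0.41 ± 0.44 for ECs against MSCs, ECs against MNCs and MSCs against MNCs (adjusted p = 0.731, 0.241 and 0.478).

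Other genes of the pathway were read from 6 lists of 84 genes in all, of which 73 passed the filter. Between ECs and MSCs 18 were called higher in ECs and 11 higher in MSCs (16.3% and 16.6% of all genes tested). Between ECs and MNCs 11 were called higher in ECs and 34 higher in MNCs (23.1% and 22% of all genes). Between MSCs and MNCs 15 were called higher in MSCs and 35 higher in MNCs (22.2% and 22% of all genes). Among 18 further Toll-like receptors and co-receptors, 13 were called higher in MNCs than in ECs and 12 higher in MNCs than in MSCs, with 2 called the other way in each. Tlr7, a sensor of single-stranded RNA, averaged 5.43 RPKM in MNCs and 0 in both niche populations. Tlr3, a sensor of double-stranded RNA that signals without MyD88, was among the 2 exceptions, at 12.2 RPKM in ECs, 3.64 RPKM in MSCs and 0.908 RPKM in MNCs. The other exception in MSCs was Lbp, which hands lipopolysaccharide to the receptor complex, at 234 RPKM in MSCs against 33.9 RPKM in MNCs and 28.2 RPKM in ECs. In ECs it was Ly96 (MD-2), the lipopolysaccharide-binding partner of TLR4, at 94.7 RPKM against 32.1 RPKM in MNCs.

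The decoys and regulators of the family differed between the 2 niche populations. Il1r2, a decoy receptor that binds IL-1 without signaling, averaged 99.1 RPKM in MNCs, 6.25 RPKM in MSCs and 0.325 RPKM in ECs, and was called in all 3 comparisons. Without both libraries that carried neutrophil and monocyte markers all 3 adjusted p values stayed below the threshold (0.00163 for ECs against MSCs, 3.99e-05 for ECs against MNCs and 0.0158 for MSCs against MNCs), with 5.34 RPKM in the 9 remaining MSC libraries. The MSC libraries were uneven, with Il1r2 over Il1r1 RPKM at 0.0388, 0.236 and 0.00155 in Flt3+/+ replicates 2, 3 and 5. It was 0.3 and 0.318 in Flt3ITD/ITD replicates 3 and 5, and the other MSC libraries had 3 or fewer Il1r2 counts. Pan-leukocyte markers summed to 4.06, 54.4 and 143 RPKM in these Flt3+/+ libraries and to 42.7 and 346 RPKM in these Flt3ITD/ITD libraries. Their part was not tested. Among ECs only Flt3ITD/ITD replicate 2 had more than 3 Il1r2 counts. In MNCs this decoy far exceeded Il1r1, which averaged 0.825 RPKM, while in ECs and MSCs Il1r1 exceeded it. Sigirr, an inhibitory receptor of the family, averaged 18.5 RPKM in ECs and 10.5 RPKM in MNCs and had a mean of 0 in MSCs. Il18bp, the secreted inhibitor of IL-18, averaged 22.6 RPKM in ECs against 2.90 RPKM in MSCs, the reverse of Il18 itself. Of the receptor list, 3 of 5 tested genes were called higher in ECs than in MSCs and 1 higher in MSCs (16.3% and 16.6% of all genes). Further, 3 of 5 (Il18r1, Il18rap and Il1rl2) were called higher in MNCs than in ECs, and 3 of 5 (Il18r1, Il18rap and Sigirr) higher in MNCs than in MSCs (22% of all genes in each).

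Among 12 inflammasome and processing genes, which mature IL-1β and IL-18, 9 were called higher in MNCs than in ECs and 10 higher in MNCs than in MSCs (22% of all genes in each). Between ECs and MSCs 5 were called higher in ECs (16.3% of all genes) and none the other way (16.6%). The 5 include Nlrp1b, at 0.021 RPKM in ECs against 0.002 RPKM in MSCs. Mefv, which encodes the inflammasome protein pyrin, averaged 13.3 RPKM in MNCs against 0.002 RPKM in ECs and 0.01 RPKM in MSCs. Casp4, the caspase that senses cytosolic lipopolysaccharide, was the 1 gene of this list higher in ECs than in MNCs, at 100 against 29.0 RPKM. Of the 20 adaptors, kinases and ubiquitin ligases tested, 15 were not called between ECs and MNCs, where 7607 of all 16897 genes were called. Between MSCs and MNCs 13 were not called, where 7478 of all genes were called. The called genes of this list included Irf5, a transcription factor that acts with MyD88, at 61.1 RPKM in MNCs against 0.324 RPKM in ECs and 1.17 RPKM in MSCs, and Ticam2, a TLR4 adaptor, at 12.1 RPKM in MNCs against 0.017 and 0.006 RPKM. Peli1, a ubiquitin ligase of the pathway, went the other way, at 19.4 RPKM in ECs and 17.5 RPKM in MSCs against 7.24 RPKM in MNCs.

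Known targets of IL-1 and Toll-like receptor signaling made up the last list. Of 15 tested, 12 were called higher in MSCs than in MNCs and 2 the other way (22.2% and 22% of all genes). Between ECs and MNCs 7 were called higher in ECs and 3 the other way (23.1% and 22% of all genes). Cxcl1, a neutrophil chemokine, averaged 1250 RPKM in MSCs, 161 RPKM in ECs and 0.00625 RPKM in MNCs. Mmp3, a stromal metalloproteinase, averaged 120 RPKM in MSCs and 0 in ECs and MNCs, and Sele, an endothelial adhesion molecule, averaged 44.3 RPKM in ECs and at most 0.123 RPKM elsewhere. Lcn2, a neutrophil granule product, was called the other way, at 4773 RPKM in MNCs against 63.5 and 49.8 RPKM. The 11 immediate-early genes read, which respond to handling and dissociation as well as to signals, summed to 1382 to 4633 RPKM in the niche libraries and to 27.0 to 577 RPKM in MNC libraries, and their part in the levels of these targets was not tested.

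The second question was whether Flt3-ITD changed the family in any of the 3 populations. None of the 10 genes was called between genotypes by the quasi-likelihood test within any population. Few genes of any kind were called, with 1 of the 12351 tested in ECs (0.0081%), 4 of the 13574 tested in MSCs (0.0295%) and 2 of the 13926 tested in MNCs (0.0144%). The filter passed 6 of the 10 in ECs and 8 each in MSCs and MNCs, and at an unadjusted p below 0.05 there were 0, 2 and 0 of them. DESeq2 called 1 of the 10 in ECs (2.58% of all genes tested), and none in MSCs (1.29%) or MNCs (2.14%). A permutation test of mean RPKM, which is exact and two-sided, was run for each gene and population, 30 tests in all, and can reach no lower than p = 0.00794 with 5 libraries against 5 and 0.0286 with 4 against 4. Within a population each library came from 1 mouse, so the spread between mice and that of the library preparation cannot be told apart.

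**Figure D3:**
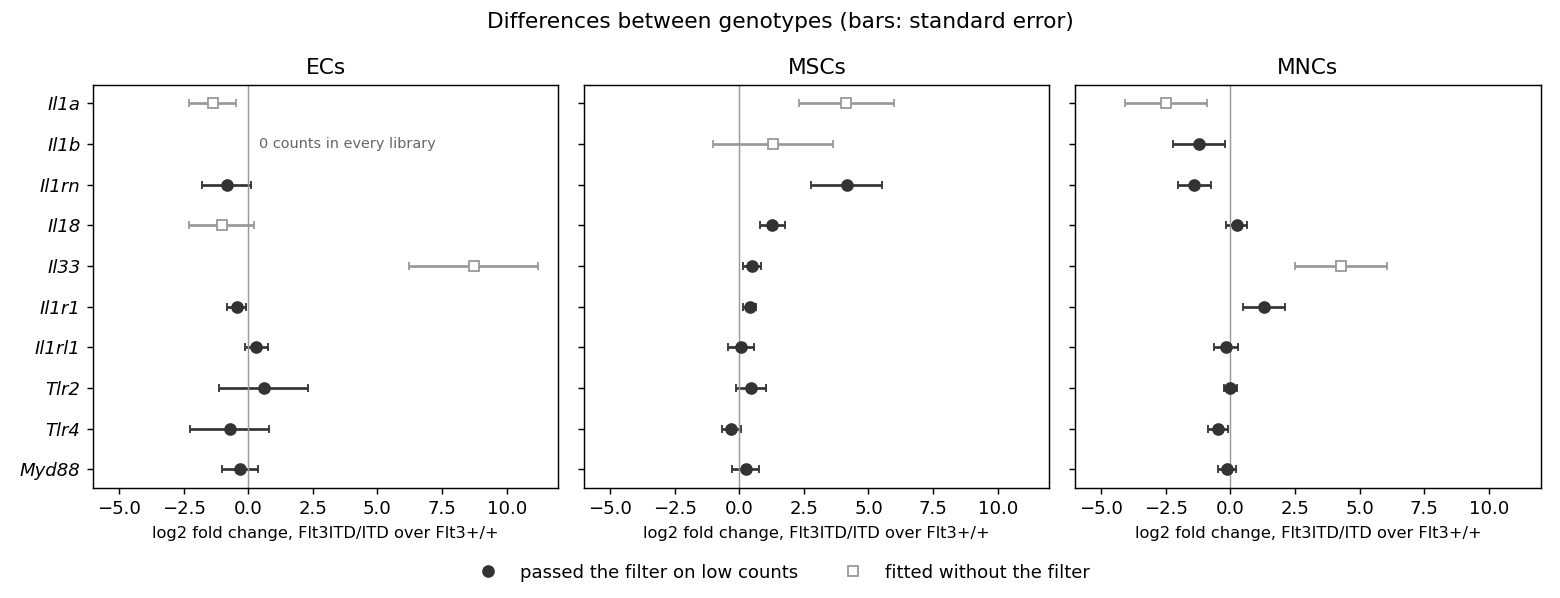
Fitted log2 fold change of each gene between Flt3ITD/ITD and Flt3+/+ libraries within ECs, MSCs and MNCs, with the standard error as bars; values above 0 are higher in Flt3ITD/ITD, and open squares are genes below the filter, fitted without it. No gene was called in any panel. The widest departures are Il33 in ECs, at 8.72, and Il1rn in MSCs, at 4.16.

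In ECs the gene that differed most was Il33. The 5 Flt3+/+ EC libraries had 0, 1, 2, 0 and 0 counts, and the 5 Flt3ITD/ITD libraries had 35, 0, 500, 751 and 0. Thus 3 Flt3ITD/ITD libraries lay above every Flt3+/+ library and 2 had no count. From the summed counts, scaled to depth, the ratio was 559 (95% exact interval 191 to 2712, counting error only, which leaves out the spread between libraries). Without Flt3ITD/ITD EC replicate 4, left out after the values had been seen, the ratio was 185 (63.3 to 897). Il33 did not pass the filter, and fitted without it the log2 fold change was 8.72 ± 2.49 with an adjusted p of 0.56, and the exact permutation p was 0.167. DESeq2 called it (log2 fold change 8.88, adjusted p = 0.0159). The quasi-likelihood fit of all 28 libraries shares the spread over populations and calls 1.63% of genes between EC genotypes. It called Il33 (8.79 ± 1.81, adjusted p = 0.0355). There Il33 passed the filter together with MSC libraries at 2003 to 12858 counts, and its spread was shared with theirs. These fits use the same EC libraries, so the call is not separate support for an EC difference. Fitted values against 3 counts depend on the prior count and are no measure of the size of the difference.

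Since Il33 is abundant in MSCs, the markers of other niche cells were read in the same 5 libraries. The mesenchymal markers summed to 3781, 5124, 5750, 3682 and 4364 RPKM in Flt3ITD/ITD EC replicates 1 to 5, and to 4870 to 6374 RPKM in Flt3+/+ ECs. Most of these sums came from Ly6a (Sca-1), which stood at 3484 to 6136 RPKM in the 10 EC libraries. Of the 10 genes of this list, 8, 5, 6, 9 and 10 had more than 3 counts in Flt3ITD/ITD replicates 1 to 5, against 6 to 10 in Flt3+/+ ECs. The 8 osteoblast and chondrocyte markers summed to 17.7 to 430 RPKM in the Flt3ITD/ITD libraries, with 17.7 RPKM in replicate 4 and 430 RPKM in replicate 5, and to 5.42 to 52.2 RPKM in Flt3+/+ ECs. The part of other niche cells in the Il33 values was not tested.

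No other gene of the set was called between EC genotypes by the quasi-likelihood test or DESeq2. Il1r1 averaged 57.9 ± 31.3 RPKM in Flt3+/+ ECs and 42.3 ± 8.14 RPKM in Flt3ITD/ITD ECs (log2 fold change -0.44 ± 0.37, exact permutation p = 0.333, n = 5 each). Il1rl1 differed by 0.32 ± 0.43 and Myd88 by -0.33 ± 0.70 on the log2 scale, which came to -1.03 ± 0.66 without Flt3ITD/ITD EC replicate 5. Tlr2 and Tlr4, with their scattered values, gave 0.60 ± 1.71 and -0.72 ± 1.52. The Tlr2 value rested on single libraries. It came to 3.57 ± 1.76 without Flt3+/+ EC replicate 4 (adjusted p = 0.961), and without Flt3ITD/ITD EC replicate 2 Tlr2 did not pass the filter, with a mean of 0.788 RPKM in the 4 remaining Flt3ITD/ITD libraries. Il1rn gave -0.83 ± 0.94, and its sign turned to 0.64 without Flt3+/+ EC replicate 1. Il1b had 0 counts in every EC library of both genotypes.

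In MSCs, Il18 stood at 14.1 ± 6.82 RPKM in Flt3+/+ and 33.1 ± 15.6 RPKM in Flt3ITD/ITD libraries (n = 5 each). Of the 5 Flt3ITD/ITD libraries, 3 lay above every Flt3+/+ library and the other 2 lay within their range. The log2 fold change was 1.28 ± 0.47, with an unadjusted quasi-likelihood p of 0.0199 and an adjusted p of 0.999, and DESeq2 gave an adjusted p of 0.16. The exact permutation p was 0.0476 and became 0.0952 without each of 6 libraries in turn, Flt3+/+ replicates 1, 3 and 4 and Flt3ITD/ITD replicates 1, 3 and 5. It is 1 of 30 such tests and missed the threshold after adjustment across all genes. The 8 macrophage markers summed to 14.0 to 49.0 RPKM in Flt3+/+ MSCs and to 101, 43.7, 35.4, 71.1 and 40.9 RPKM in Flt3ITD/ITD MSC replicates 1 to 5. B cell markers summed to 48.0 to 79.4 RPKM in Flt3+/+ and 77.6 to 141 RPKM in Flt3ITD/ITD MSCs, and osteoblast and chondrocyte markers to 3636 to 9214 RPKM (median 7552) and 1376 to 6653 RPKM (median 3547). The macrophage and B cell sums rested on few genes. In each MSC library 1 or 2 of the 8 macrophage genes had more than 3 counts. For the 8 B cell genes this was 1 to 3. The part of other cells in the Il18 values was not tested.

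Il1rn in MSCs gave a log2 fold change of 4.16 ± 1.37 (unadjusted p = 0.0112, adjusted p = 0.999), which came to 1.17 ± 0.64 without Flt3ITD/ITD replicate 5, the library with neutrophil and monocyte markers and 11.2 RPKM of Il1rn. Il33 averaged 74.5 ± 12.4 RPKM and 99.5 ± 59.4 RPKM (0.50 ± 0.36, exact permutation p = 0.476, n = 5 each), with the mean of Flt3ITD/ITD raised by 198 RPKM in replicate 4, and came to 0.03 without that library. Il1r1 averaged 54.8 ± 11.5 RPKM and 70.3 ± 22.3 RPKM (0.41 ± 0.25, exact permutation p = 0.206, n = 5 each). Tlr2, Tlr4, Myd88 and Il1rl1 gave log2 fold changes of 0.45 ± 0.57, -0.30 ± 0.37, 0.25 ± 0.52 and 0.06 ± 0.50. Il1b, with 1 and 2 positive libraries, gave 1.29 ± 2.32 when fitted without the filter.

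In MNCs, Il1b averaged 35.4 ± 13.6 RPKM in Flt3+/+ and 16.8 ± 18.1 RPKM in Flt3ITD/ITD mice (n = 4 each), and Il1rn 63.9 ± 23.4 and 28.3 ± 22.8 RPKM. For both genes Flt3ITD/ITD replicates 1 and 2 lay inside the Flt3+/+ range and replicates 3 and 4 lay far below it. The log2 fold changes were -1.23 ± 1.01 for Il1b (adjusted p = 0.7, exact permutation p = 0.229) and -1.39 ± 0.64 for Il1rn (adjusted p = 0.486, exact permutation p = 0.0857). With the replicate number as a block in the quasi-likelihood fit they were -2.55 and -1.78 (adjusted p = 0.605 for each). Replicates 3 and 4 are also the Flt3ITD/ITD libraries in which the neutrophil and monocyte markers were low. The immediate-early sum divided the MNC libraries of both genotypes in the same way, at 388 to 577 RPKM in replicates 1 and 2 and 27.0 to 43.7 RPKM in replicates 3 and 4. Within replicates 1 and 2, mean Il1b was 43.7 RPKM in Flt3+/+ and 32.02 RPKM in Flt3ITD/ITD mice and mean Il1rn 51.4 and 47.8 RPKM. Within replicates 3 and 4 the means were 27.1 and 1.62 RPKM for Il1b and 76.5 and 8.85 RPKM for Il1rn. With 2 libraries on each side these values carry no test, and the split was made after the data had been seen.

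**Figure D4:**
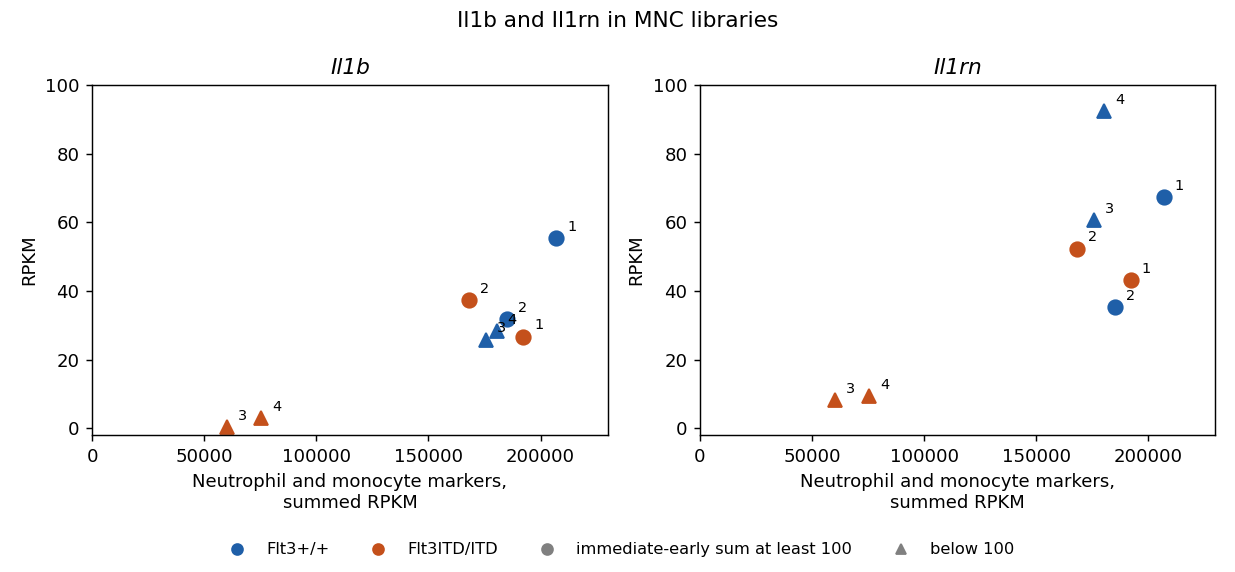
RPKM of Il1b (left) and Il1rn (right) in the 8 MNC libraries against the summed RPKM of 12 neutrophil and monocyte markers; color gives genotype, shape the immediate-early sum (circles at least 100 RPKM, triangles below), and numbers the replicate. Flt3ITD/ITD replicates 3 and 4, at the left of each panel, hold 0.38 and 2.85 RPKM of Il1b and 8.25 and 9.45 RPKM of Il1rn.

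The Il1r1 values of MNC libraries did not overlap between genotypes. The share of all genes that separate in this way was not counted, so this is not read as a result about the family. Il1r1 averaged 0.415 ± 0.275 RPKM in Flt3+/+ and 1.24 ± 0.41 RPKM in Flt3ITD/ITD mice (n = 4 each), and the exact permutation p of 0.0286 is the smallest this design allows. It is 1 of 30 such tests, not adjusted over the genes. Il1r1 was not called (log2 fold change 1.30 ± 0.82, adjusted p = 0.601). The counts behind it were low, with 149 in the 4 Flt3+/+ libraries together and 453 in the 4 Flt3ITD/ITD libraries. Il1r1 was high in both niche populations. Endothelial markers summed to 12.9, 16.1, 8.67 and 17.3 RPKM in Flt3+/+ MNCs and to 15.6, 18.5, 19.5 and 35.3 RPKM in Flt3ITD/ITD MNCs. Mesenchymal markers summed to 151, 95.4, 157 and 111 RPKM in Flt3+/+ MNCs and to 124, 196, 86.5 and 122 RPKM in Flt3ITD/ITD MNCs. The part of niche cells in the Il1r1 values was not tested. Il33 in MNCs had 0, 2, 0 and 1 counts in Flt3+/+ and 17, 0, 60 and 0 in Flt3ITD/ITD libraries, a ratio from summed counts, scaled to depth, of 23.9 (95% exact interval 8.17 to 116, counting error only). Fitted without the filter it gave an adjusted p of 0.525. Il18, Il1rl1, Tlr2, Tlr4 and Myd88 gave log2 fold changes of 0.25 ± 0.41, -0.17 ± 0.47, 0.00 ± 0.26, -0.48 ± 0.39 and -0.12 ± 0.34, and of these Tlr2 was the most closely bounded.

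None of the 84 other pathway genes was called between genotypes by the quasi-likelihood test, with 49, 53 and 68 tested in ECs, MSCs and MNCs. At an unadjusted p below 0.05 there were 0, 2 and 12, beside 4.99%, 4.24% and 10.4% of all genes tested. The gene with the smallest p in MNCs was Tab3, a partner of the kinase TAK1 downstream of TRAF6, at 2.77 ± 0.491 RPKM in Flt3+/+ and 1.05 ± 0.553 RPKM in Flt3ITD/ITD mice (log2 fold change -1.64 ± 0.39, adjusted p = 0.397). Il1r2, the decoy receptor, averaged 148 ± 61.3 and 50.3 ± 38.1 RPKM in MNCs (-1.80 ± 0.65, adjusted p = 0.419), and DESeq2 called both genes. Irf5 (0.70 ± 0.21), Aim2, a sensor of cytosolic DNA (0.71 ± 0.23), and Ly86, a co-receptor (1.12 ± 0.37), completed the 5 with the smallest p in MNCs. Ticam1, the adaptor that TLR3 uses in place of MyD88, averaged 1.92 RPKM in Flt3+/+ and 0.088 RPKM in Flt3ITD/ITD MSCs (-4.30 ± 1.43, adjusted p = 0.999), and 0.052 and 2.20 RPKM in ECs (5.11 ± 2.13, fitted without the filter, adjusted p = 0.56). In MSCs DESeq2, which called 1.29% of all genes tested there, called Ticam1 (-4.34, adjusted p = 0.0703) and Tlr5 (adjusted p = 8.45e-12), both lower in Flt3ITD/ITD. Tlr5 averaged 0.601 RPKM in MSCs.

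Whether a genotype difference itself differed between populations was tested as an interaction in the fit of all 28 libraries. None of the 10 genes passed an adjusted p of 0.1, against 0.379% of genes for ECs against MSCs, 0.0118% for ECs against MNCs and 0.00592% for MSCs against MNCs. Il33 came closest, with an EC difference 8.28 ± 2.11 larger than the MSC difference on the log2 scale (adjusted p = 0.117), and it passed without both libraries that carried neutrophil and monocyte markers (8.57, adjusted p = 0.0934). Il1rn gave -5.02 ± 1.54 for ECs against MSCs (adjusted p = 0.167) and 5.52 ± 1.61 for MSCs against MNCs (adjusted p = 0.407), and Il1r1 gave -1.75 ± 0.74 for ECs against MNCs (adjusted p = 0.527). DESeq2 called Il33 and Il1rn between ECs and MSCs (5.55% of genes) and Il1rn between MSCs and MNCs (2.15%). The Il1rn values rested on Flt3ITD/ITD MSC replicate 5. Without both libraries that carried neutrophil and monocyte markers they came to -1.88 ± 1.20 for ECs against MSCs (adjusted p = 0.665) and 2.58 ± 1.20 for MSCs against MNCs (adjusted p = 0.711), and both DESeq2 calls were lost (adjusted p = 0.562 and 0.467). Of the other pathway genes, Ticam1 passed for ECs against MSCs (9.43 ± 2.26, adjusted p = 0.0965; 9.66 ± 2.24 and 0.0934 without both libraries).

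The genes whose levels ran most like those of the 10 were ranked by Pearson correlation of log2(RPKM + 1) over the 28 libraries, among 13727 genes. The points share populations and libraries, likeness within a population was not tested, and the values carry no test. Il1rn ran with Mmp8 (0.976), Fpr1 (0.973) and Clec4e (0.973), genes of neutrophil granules and myeloid receptors, and Il1b with Hrh2 (0.934), Clec4d (0.920) and Osm (0.914). Il33 ran with Hspb8 (0.960), Gas1 (0.956) and Thbs2 (0.955), and Il18 with Dpp4 (0.934), C3 (0.933) and Pid1 (0.921). Il1r1 ran with Ppap2b (0.983), Ltbp4 (0.976) and AK205936 (0.976). Il1rl1 reached at most 0.880, with Ifitm1, and Tlr2 at most 0.903, with Ptgr1. Tlr4 and Myd88, the genes with no difference between populations past the threshold, had no partner above 0.713 (Gcsh) and 0.743 (Ftl1). With Spearman correlation, 1 of the 3 genes named for Il1rn and none of those for the other genes stayed among the 3 highest.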

How the data were processed

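RNA from 28 samples of cells sorted into lysis buffer was amplified with a SMARTer ultra-low input kit and sequenced by the study as single 51-base reads. The authors aligned reads with Bowtie to UCSC transcripts of mouse build mm10, discarded reads that mapped to more than 1 place, estimated counts per gene with RSEM, and deposited read counts, not normalized. The deposited RPKM values, also made by the authors, use a transcript length per library, so RPKM and counts of one gene need not scale exactly between libraries. Versions of these tools are not given in the sources used here.

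Counts were tested with edgeR 4.0.16 in R 4.3.3 (quasi-likelihood test, TMM scaling, filterByExpr, Benjamini-Hochberg adjustment over all genes tested), within each population for genotype and in 1 fit of 6 groups for populations and interactions. Calls needed an adjusted p below 0.1 and, except for interactions, a 2-fold difference of mean RPKM. Fold changes are fitted log2 values with standard errors, and intervals on summed counts are exact at 95% and cover counting error only. The count limit behind a value of 0 was 3 counts. For single genes, mean RPKM of the 2 genotypes was compared by an exact permutation test, two-sided (scipy 1.17.1). Named pathway genes are the 5 with the smallest p in each genotype comparison and up to 2 called genes per list and direction with the largest RPKM ratio between populations. Promoter windows come from RefSeq. The members and lists were chosen with earlier results of these data known.

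Alternatives were DESeq2 1.42.0 (its size factors or its Wald test), no filter, the edgeR exact test, no fold rule, a replicate block, leaving out each library, leaving out both libraries with neutrophil transcripts, Flt3+/+ libraries only, and other scales. Same-numbered libraries of the 2 genotypes deviated together with correlations of -0.0719 to 0.0619, none above 0.1, so the main fits did not use the numbers as pairs. In MNCs the immediate-early sum did follow the number, high in replicates 1 and 2 and low in replicates 3 and 4 of both genotypes. The main fits leave this out, and the replicate block is given as an alternative. The paper gives 2 experiments for a comparison of the genotypes within ECs and within MSCs, and the sample labels do not say which libraries belong to which. The division of MNC libraries by immediate-early genes, the Il33 ratio without Flt3ITD/ITD EC replicate 4, the DESeq2 interactions without both libraries with neutrophil transcripts and the mean RPKM values without one of them were added after seeing the data.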

Additional observations from a re-analysis of the deposited data

Results flagged for a closer look

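Of 51 groups of 4 or 5 libraries in which the spread of one gene could be judged, 9 held 1 library far from the nearest other for the range of its group (Dixon's test). The chance rate of about 5% for this test holds for normally distributed values. RPKM values with many zeros are not so distributed, so the 9 groups cannot be set against that rate. The share over all genes was not counted. Il1a stood at 0.19 RPKM (11 counts) in Flt3ITD/ITD MSC replicate 1, with 0 in the other 4, and at 0.3 RPKM (12 counts) in Flt3ITD/ITD MNC replicate 2, with 0 to 0.05 RPKM in the other 3. Il1b stood at 6.8 RPKM (294 counts) in Flt3+/+ MSC replicate 5, with 0 to 0.06 RPKM in the others. Il1rn stood at 2.45 RPKM in Flt3+/+ EC replicate 1 (others 0.17 to 0.37 RPKM), at 1.27 RPKM in Flt3ITD/ITD EC replicate 1 (others 0.12 to 0.24 RPKM), and at 11.15 RPKM in Flt3ITD/ITD MSC replicate 5 (others 0.11 to 0.71 RPKM), the library that also carried neutrophil and monocyte markers. Il33 stood at 24.51 RPKM (751 counts) in Flt3ITD/ITD EC replicate 4, with 0 to 6.69 RPKM in the others. Tlr2 stood at 8.84 RPKM (310 counts) in Flt3+/+ EC replicate 4 (others 0.02 to 0.52 RPKM) and at 10.36 RPKM (844 counts) in Flt3ITD/ITD EC replicate 2 (others 0.01 to 2.78 RPKM), the EC library with neutrophil and monocyte markers. All 9 values lay on the high side of their group.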

How the results depend on the processing

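Of 341 recomputed counts of called genes, 330 stayed within 1.5 times the reported count. Between genotypes, DESeq2 called 1 of the 10 genes in ECs (Il33) and 2 other pathway genes each in MSCs (Tlr5 and Ticam1) and MNCs (Il1r2 and Tab3), the fit of all 28 libraries called 1 of the 10 (Il33) and 1 other pathway gene (Ccl7) in ECs, and the edgeR exact test called 1 other pathway gene (Tab3) in MNCs, where the quasi-likelihood test called 0. With each library left out in turn, genotype counts stayed at 0. For interactions, DESeq2 called 2 of the 10, leaving out both libraries with neutrophil transcripts called 1, and leaving out single libraries called 0 to 1 (Il33 without Flt3ITD/ITD EC replicate 1, 2 or 5). Between populations, leaving out each library called 4 to 5 of the 10 for ECs against MSCs, 6 to 7 for ECs against MNCs and 4 to 6 for MSCs against MNCs. Flt3+/+ libraries alone called 3, 6 and 4. With the replicate block the counts of the 10 genes stayed at 0 between genotypes and at 4, 6 and 5 between populations, and 0 genes of any kind were called between genotypes, though the log2 fold change of Il1b in MNCs moved to -2.55 and that of Il1rn in MSCs to 1.63. No fitted value past the threshold changed its sign, and 14 of 351 genotype values and 19 of 918 population values changed sign while below it. The cause of these changes was not tested.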

Other observations

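The balance of decoy to signaling receptor in MNCs was read after the levels of both genes had been seen, and is given as values without a test. Il1r2 over Il1r1 RPKM was 225, 369 and 378 in Flt3+/+ MNC replicates 1, 3 and 4, with replicate 2 left out because Il1r1 had 1 count there. In Flt3ITD/ITD MNC replicates 1 to 4 it was 100, 57.6, 20.8 and 8.92. The ratio of Il1r2 to its ligand Il1b ran from 2.09 to 8.0 in Flt3+/+ MNCs and stood at 2.82, 2.42, 56.9 and 4.95 in Flt3ITD/ITD MNCs. Neutrophil and monocyte markers and the first of these ratios were both lowest in Flt3ITD/ITD replicates 3 and 4. In the other MNC libraries they did not run in the same order. The markers summed to 192253 RPKM in Flt3ITD/ITD replicate 1, with a ratio of 100, and to 175884 RPKM in Flt3+/+ replicate 3, with 369. The part of these markers in the ratio was not tested.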
